A study of Homo sapiens with 6 samples.

Results

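The 46 genes described here act at the step from G1 into S phase and in the copying of DNA: the factors that license origins, the replicative helicase, the polymerases and their clamp, the enzymes that supply nucleotides, the E2F factors and E-type cyclins that time the step, and the factors that rebuild chromatin behind the fork. They were taken from a fixed list of symbols, and all 46 were found among the 16779 genes of the deposited count tables. RNA-seq had been done on 6 libraries labelled A549, a human lung adenocarcinoma line: 3 labelled control with the genotype WT and 3 labelled RN7SK-KO with the genotype RN7SK knockout. The product of RN7SK is the 7SK RNA, which keeps the elongation kinase P-TEFb inactive, and the comparison asks which mRNAs differ without it. The labels name no other treatment, time or clone, and do not say whether the 3 libraries of a group came from separate cultures, so p-values measure only the spread between these libraries, which may be technical.

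In G1, the origin recognition complex ORC, with CDC6 and CDT1, loads the ring of MCM2 to MCM7 onto DNA, and geminin (GMNN) blocks CDT1 once S phase has begun. Cyclin E with its kinase CDK2 releases E2F factors from the RB protein, and E2F then switches on many of the genes listed here. CDC45 and the GINS complex turn the loaded ring into a running helicase, primase and DNA polymerase alpha start each strand, and polymerases epsilon and delta extend it on the PCNA clamp. In a growing cell line these mRNAs follow the share of cells near S phase, and in a bulk sample fewer cells with an mRNA and less of it per cell cannot be told apart.

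Total counts were 16018260 to 19357144 per library. RN7SK itself was not analysed here, so the labels were checked only against genes that mark the line. CDKN2A, a cell cycle inhibitor that A549 cells are known to lack, had 963, 1005 and 923 counts in the control libraries and 0, 1 and 2 in the libraries labelled knockout, so the control libraries went against the line named for them; the groups are called by their labels throughout, and higher and lower mean higher and lower in the libraries labelled knockout. Of 19 lung epithelial and A549 markers, 12 could be tested. The 9 that mark epithelium or A549 were higher. The 3 lower ones were CDKN2A, CDKN2B and MTAP, neighbours on chromosome 9 that stand on the list because A549 cells lack them. MTAP was lower but not absent, with 839, 897 and 835 counts in control and 240, 201 and 233 in knockout libraries. Among the lung epithelial markers too low to test, SFTPA1 and SFTPB had 0 counts in every library. SFTPD had 0 in each control library against 4, 6 and 1, and NKX2-1 had 1, 0 and 0 against 11, 5 and 9. SFTPC had 1, 0 and 1 against 2, 4 and 2. EPCAM, with 12, 9 and 9 against 8, 9 and 6, and KRT19, with 2, 1 and 0 against 1, 2 and 1, overlapped between the groups. Of the other markers that could be tested, 4 of 4 endothelial markers were lower. Most of their control level came from ESAM and ENG, with 110.1 and 54.6 CPM in control and 2.92 and 0.235 CPM in knockout libraries. Endothelial markers too low to test did not go this way. PECAM1 had 0, 2 and 0 counts in control against 2, 2 and 3 in knockout libraries, and VWF 0 in each against 1, 3 and 4. KDR had 4, 1 and 0 against 5, 8 and 19, and TEK 1, 0 and 0 against 5, 1 and 1. Of the tested fibroblast markers 3 of 4 were higher and 1 lower, and of the tested haematopoietic markers 3 of 4 were higher. PTPRC, which marks leukocytes, had 0 counts in the control libraries and 3, 5 and 1 in the knockout libraries. CD3E, which marks T cells, had 0 in all 6. Levels are given in CPM, counts divided by the library size after scaling by the trimmed mean of M values, unless FPKM is named. Summed over each list, the level was 5344 to 5630 CPM in control and 13995 to 14297 in knockout libraries for the lung epithelial and A549 markers, and 162.5 to 175.1 CPM in control and 4.2 to 4.9 in knockout libraries for the endothelial markers. It was 73.8 to 78.0 CPM in control and 116.2 to 123.8 in knockout libraries for the fibroblast markers, and 37.6 to 41.6 CPM in control and 58.9 to 63.4 in knockout libraries for the haematopoietic markers. In this design, loss of RN7SK cannot be told apart from any other difference between the 2 sets of libraries, including one of cell line, and this holds for every fold change below.

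Many S phase promoters carry E2F sites, so the start regions of the listed genes are shown before their levels. RefSeq promoter windows (GRCh38.p14, 250 bases before to 50 bases after a gene start) were matched by symbol for 40 of the 46 genes, in 52 windows; CCNE2, DSCC1, GINS4, MCM4, MCM5 and POLD3 had no entry. The exact words TTTCCCGC, TTTCGCGC, TTTGCCGC and TTTGGCGC, which make up the E2F consensus, were searched on both strands. They stood in 22 of the 52 windows (42.3%), against 3.31% of 35116 windows of all genes and 4.76% of 15369 windows of tested genes. By gene, 21 of 40 (52.5%) had a word, against 3.99% of all genes and 6.58% of tested genes with a window. A match is a description of letters and not of a bound site. Words on opposite strands can overlap, as TTTGGCGC does with the reverse complement of TTTCGCGC in MCM6, and the 29 matches count such pairs as separate.

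The following stretches show genes that were lower, higher and not called, each 5′ to 3′ on the gene's strand with the E2F words in capitals. Positions count from the RefSeq start, with the base before it at -1. The stretch of MCM6 (chr2:135876504-135876623, minus strand, from -180 to -61) has 4 overlapping matches in 2 blocks, and its mRNA was lower. POLE2 (chr14:49688195-49688294, minus strand), GINS2 (chr16:85688935-85689034, minus strand) and E2F1 (chr20:33686366-33686465, minus strand) were also lower. MCM2 (chr3:127598331-127598430, plus strand) and POLA2 (chr11:65261882-65261981, plus strand) were higher. PCNA (chr20:5126603-5126702, minus strand) was higher by a margin at the threshold, and CDC6 (chr17:40287799-40287898, plus strand) did not pass. All but the first run from -80 to 20.
MCM6: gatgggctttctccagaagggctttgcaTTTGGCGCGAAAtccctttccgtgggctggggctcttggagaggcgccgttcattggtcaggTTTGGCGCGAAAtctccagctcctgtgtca
POLE2: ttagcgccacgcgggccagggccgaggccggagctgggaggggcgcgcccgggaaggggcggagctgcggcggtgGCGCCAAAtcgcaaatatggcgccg
GINS2: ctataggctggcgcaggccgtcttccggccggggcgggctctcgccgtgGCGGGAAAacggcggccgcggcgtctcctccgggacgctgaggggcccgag
E2F1: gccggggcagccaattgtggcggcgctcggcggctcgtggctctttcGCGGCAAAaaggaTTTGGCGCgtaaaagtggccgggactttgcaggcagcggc
MCM2: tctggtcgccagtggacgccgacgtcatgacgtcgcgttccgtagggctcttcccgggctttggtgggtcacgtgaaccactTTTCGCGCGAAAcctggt
POLA2: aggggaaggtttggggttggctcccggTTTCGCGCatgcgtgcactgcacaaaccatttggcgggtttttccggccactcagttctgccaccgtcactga
CDC6: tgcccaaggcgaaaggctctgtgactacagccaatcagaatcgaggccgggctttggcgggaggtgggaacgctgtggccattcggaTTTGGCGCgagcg
PCNA: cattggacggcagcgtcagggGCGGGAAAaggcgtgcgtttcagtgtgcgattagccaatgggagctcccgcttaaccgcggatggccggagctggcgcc

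Of the 29 matches, 22 lay from 100 bases before the start to the end of the window. A word was found in 15 of 31 lower genes with a window, in 3 of 5 higher genes and in 3 of 4 that did not pass, so genes of every direction carried one. Among the other words searched on both strands, CCAAT stood in 55.8% of the windows, against 34.6% of all windows and 34.4% of those of tested genes. By gene it was 57.5% of the list and 43.2% of tested genes. GGGCGG stood in 78.8% against 45.0% of all windows, or 65.6% of those of tested genes; by gene it was 77.5% of the list and 77.2% of tested genes, which are alike. TTTGAA stood in 1 of the 52 windows (1.92%), against 15.2% of all windows and 10.4% of those of tested genes.

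**Figure D1:**
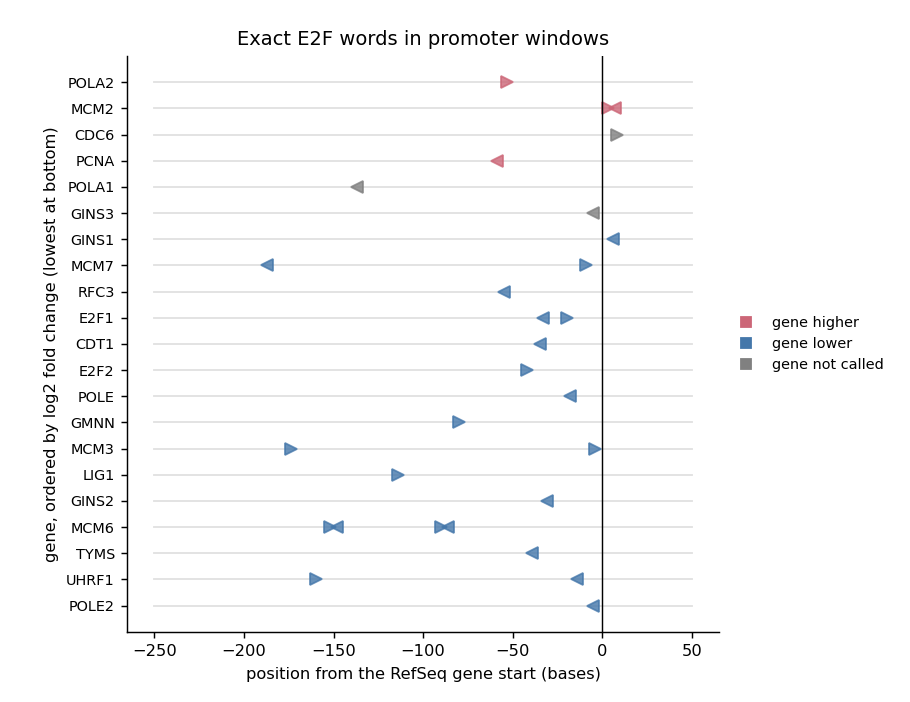
Position of each exact E2F word in the promoter windows of 21 genes, in bases from the RefSeq start, with the window as a grey line; right-pointing triangles are words on the gene's strand, left-pointing ones are words on the other strand, and each stands at the first base of the word on the gene's strand. Genes are ordered by log2 fold change, and higher (red), lower (blue) and uncalled (grey) genes all carry words, and 22 of the 29 words lie from 100 bases before the start onward.

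Most of the 46 genes were lower in the libraries labelled knockout. By edgeR's quasi-likelihood test, with Benjamini-Hochberg adjustment over 12929 genes and an adjusted p under 0.05 as the threshold, 36 fell, 6 rose and 4 did not pass. In the same test 85.0% of all genes were called, 43.0% lower and 42.0% higher, so being called sets no gene apart; the shares of the list were 78.3% lower and 13.0% higher. The median log2 fold change was -0.55 over the list and -0.01 over all tested genes. Of the list, 10 genes were at least 2-fold lower and 0 were at least 2-fold higher, where 14.1% and 19.5% of all tested genes were. The CPM of the groups did not overlap for 36 lower and 7 higher genes, where 43.2% and 42.4% of all tested genes stood apart in those directions. All 46 passed the low-count filter, and apart from CHTF8 the smallest count of any of them in a library was 102.

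**Figure D2:**
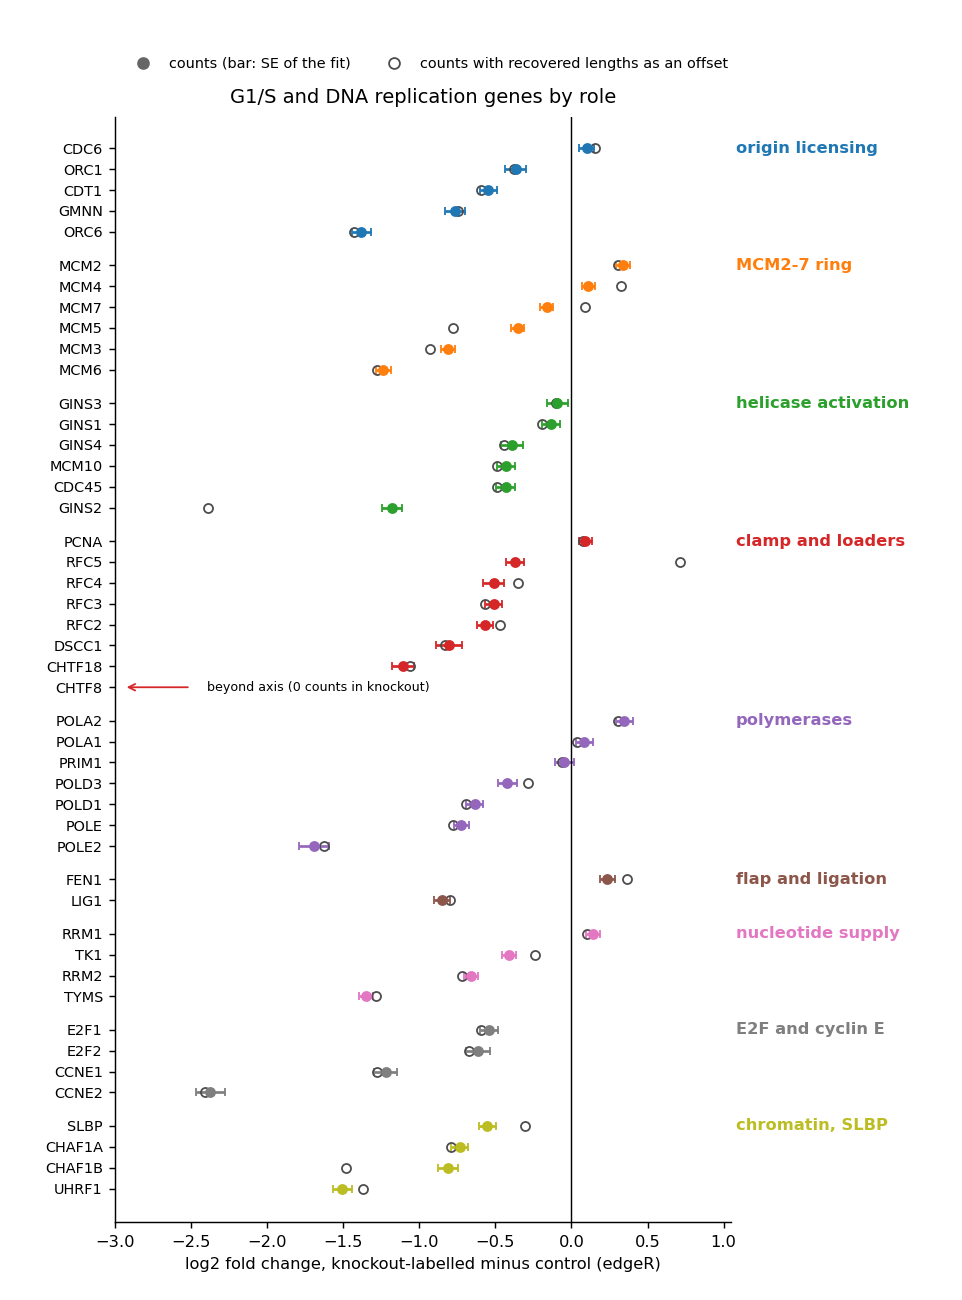
Log2 fold change of each gene between the libraries labelled knockout and control, grouped by role; filled points with bars are the edgeR fit on counts ± SE (n = 3 against 3) and open points are the same fit with each group's gene length as an offset. Most points lie left of 0; RFC5 at -0.37 and MCM7 at -0.16 change side with the offset, and CHTF8, with 0 counts in the libraries labelled knockout, lies beyond the axis.

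The libraries of a group lay close together. Relative to the control mean, the median of the genes in log2 was -0.51, -0.51 and -0.55 in knockout replicates 1 to 3 and between -0.01 and 0.02 in the control replicates. In each knockout library 37 of the 45 genes with a value lay below the control mean. In control replicates 1 to 3 it was 30, 18 and 22 of the 46.

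**Figure D3:**
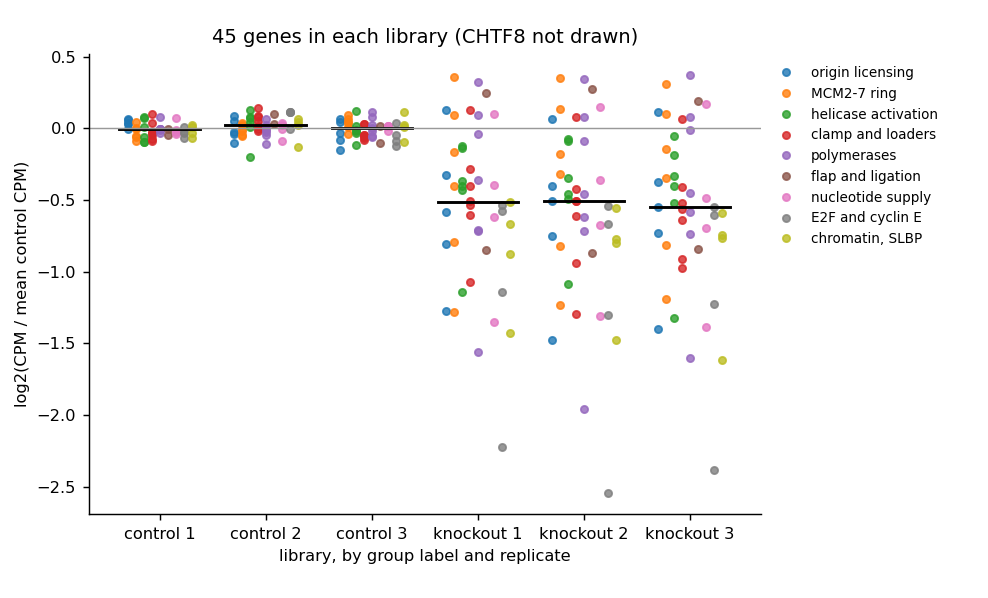
Log2 ratio of each gene's CPM to its mean over the control libraries, in each of the 6 libraries, for 45 genes coloured by role; black bars are library medians. The control medians lie at 0.02 or nearer to 0, those of the libraries labelled knockout between -0.55 and -0.51, with a wide spread between genes that recurs in all 3.

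The gene models behind the values bear on several results. Dividing counts by the deposited FPKM, which scales fragments by gene length and library size, gave the gene length used for each gene, and these lengths differed between the groups. Of all 14582 genes with a length in both groups, 32.3% agreed within 1%, so the difference was not particular to the list. Of the 45 genes of the list with a length in both groups, 16 agreed within 1%, 25 were shorter in the knockout tables and 4 were longer. Among the 16 that agreed, 15 fell, 0 rose and 1 did not pass, where 42.8% of tested genes with agreeing lengths were lower and 42.4% higher, and the median was -0.58. When edgeR was given these lengths as offsets, 33 of 45 genes fell and 7 rose, where 43.1% and 42.1% of tested genes did so, with a median of -0.57. Tested against a change of 1.5-fold (edgeR's glmTreat), 18 of the 46 genes were lower and 0 higher, where 21.7% and 24.4% of all genes were. With the replicate number as a block, 36 were lower and 5 higher, where 42.6% and 41.7% of all genes were. Whether reads were also assigned to genes by different models in the groups was not tested.

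**Figure D4:**
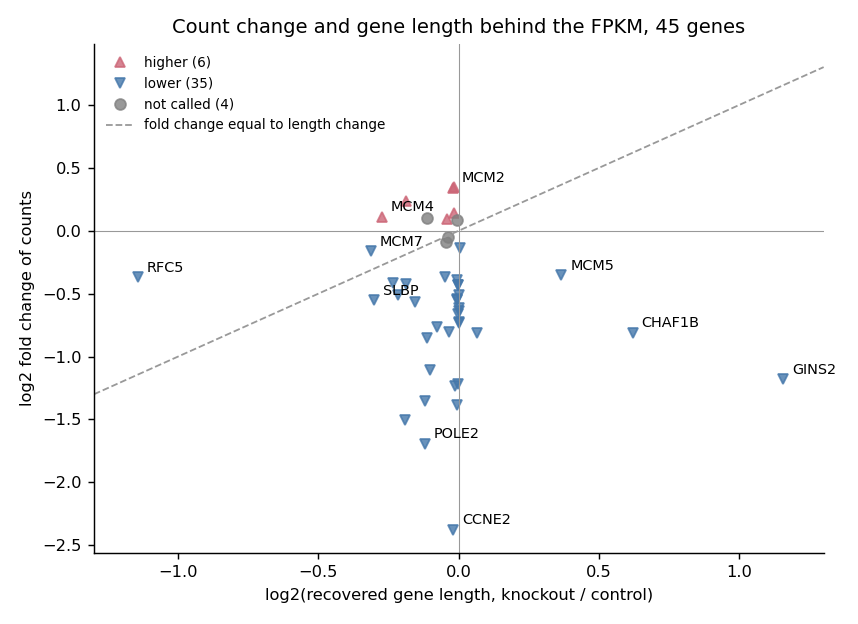
Log2 fold change of counts against the log2 ratio of the gene length recovered for the knockout tables to that for the control tables, for 45 genes. Most genes lie near 0 on the length axis at any fold change; RFC5, with 4578 and 2071 bases, and GINS2, with 1180 and 2628 bases in control and knockout, lie farthest out, and the dashed line marks equal change of count and length.

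Among the licensing factors 4 of 5 fell and 1 did not pass. ORC6, the smallest subunit of the origin recognition complex, had 81.5, 82.7 and 75.4 CPM in control replicates 1 to 3 and 32.9, 28.6 and 30.3 CPM in knockout replicates 1 to 3. That is 2.61-fold lower, with a log2 fold change of -1.38 ± 0.063 (fit ± SE) and an adjusted p of 3.71e-20. ORC1, the subunit whose level cycles with the cell cycle, fell less, with a log2 fold change of -0.37 ± 0.067 and an adjusted p of 6.96e-06. The count of ORC6 per count of ORC1 was accordingly 2.04 ± 0.214 in the control and 1.01 ± 0.0431 in the knockout libraries (SD, n = 3). CDT1, the loader of the helicase ring, had 83.8, 81.7 and 86.9 CPM in control and 56.0, 59.2 and 57.6 CPM in knockout libraries, a log2 fold change of -0.55 ± 0.054 (adjusted p = 3.36e-11). GMNN, its inhibitor, had 55.9, 56.4 and 47.9 CPM against 30.5, 31.6 and 32.0 CPM, a log2 fold change of -0.77 ± 0.067 (adjusted p = 1.81e-12). For both genes every knockout library lay below every control library. The ratio of CDT1 to GMNN counts overlapped between the groups, at 1.59 ± 0.197 and 1.84 ± 0.0384. CDC6, the ATPase that completes the loading complex, had 110.1, 103.7 and 103.3 CPM in control and 115.4, 110.4 and 114.2 CPM in knockout libraries. Its groups just failed to overlap, and it did not pass (log2 fold change 0.10 ± 0.049, adjusted p = 0.0536); it passed in 9 of 17 alternatives, each time higher.

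The 6 subunits of the MCM ring did not move together: 4 fell and 2 rose. MCM6 had 173.5, 177.3 and 168.2 CPM in control replicates 1 to 3 and 71.1, 73.5 and 75.7 CPM in knockout replicates 1 to 3, the deepest fall of the ring. Its log2 fold change was -1.24 ± 0.049 with an adjusted p of 5.28e-22, and its gene length agreed within 1% between the groups. MCM3 had 242.5, 256.7 and 260.3 CPM against 145.8, 143.0 and 144.0 CPM (log2 fold change -0.81 ± 0.044, adjusted p = 6.15e-18). MCM5 had 215.5, 209.9 and 223.4 CPM against 163.9, 173.8 and 169.9 CPM (log2 fold change -0.36 ± 0.044, adjusted p = 7.50e-09). With its lengths of 3185 and 4104 bases as an offset, the log2 fold change of MCM5 was -0.78. MCM2, by contrast, was higher in each knockout library, at 211.5, 210.9 and 204.8 CPM against 159.2, 163.4 and 173.0 CPM (log2 fold change 0.34 ± 0.045, adjusted p = 2.20e-08). MCM4 rose little, from 238.0, 222.6 and 232.2 CPM to 246.8, 253.5 and 247.3 CPM (log2 fold change 0.11 ± 0.043, adjusted p = 0.0186). The call of MCM4 was lost without knockout replicate 2 or 3 (adjusted p = 0.0923 and 0.0505), while with its lengths of 4916 and 4062 bases as an offset its log2 fold change was 0.33. MCM7 had 370.9, 393.4 and 421.0 CPM against 352.7, 348.9 and 356.7 CPM and fell in counts (log2 fold change -0.16 ± 0.044, adjusted p = 0.00106), but with the lengths of 3653 and 2941 bases as an offset it had 0.09 and did not pass (adjusted p = 0.0524), and on log2(FPKM + 0.1) it was higher by 0.18.

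Per gene length, the ring subunits were nearer to each other in the control libraries. The highest FPKM of the 6 was 2.28, 2.38 and 2.59 times the lowest in control replicates 1 to 3 and 6.33, 6.06 and 6.02 times the lowest in knockout replicates 1 to 3. MCM7 was highest in all 6 libraries. Its mean went from 105.3 to 119.0 FPKM but from 395.1 to 352.8 CPM. The ratios above thus rest in part on its lengths of 3653 and 2941 bases. At the other end, MCM2, MCM4 and MCM6 changed places between control libraries and their means, 45.0, 45.7 and 44.5 FPKM, lay within their spread (SD 1.80, 1.65 and 1.22), whereas MCM6 was lowest in all 3 knockout libraries. MCM6 made up 11.6% ± 0.593 of the summed ring FPKM in the control and 5.68% ± 0.161 in the knockout libraries (SD, n = 3), and MCM2 made up 11.7% ± 0.153 and 17.2% ± 0.333. Counts gave the same direction without the use of length: there were 1.09, 1.085 and 0.972 counts of MCM6 per count of MCM2 in the control libraries and 0.336, 0.348 and 0.37 in the knockout libraries.

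**Figure D5:**
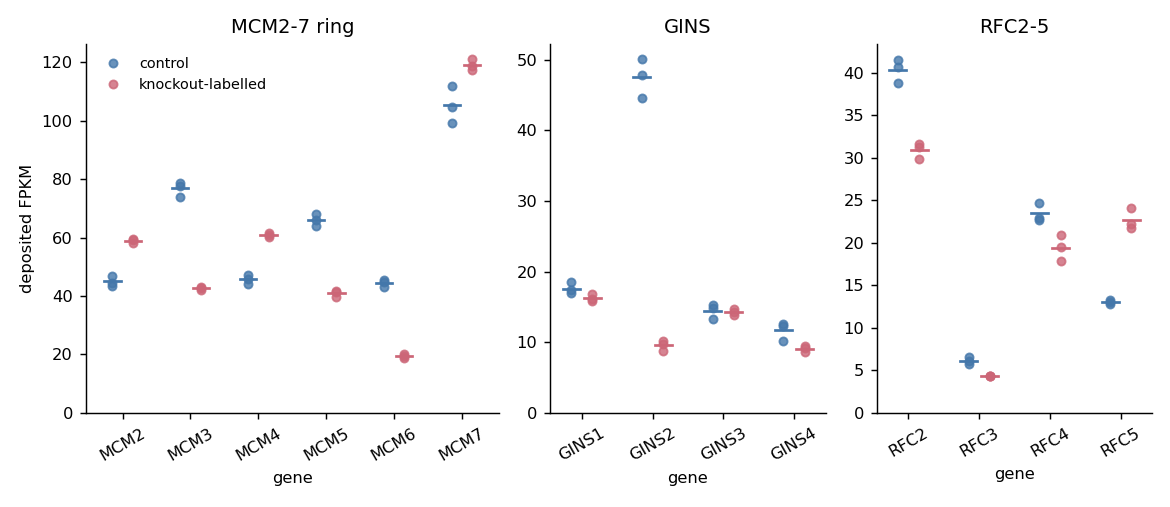
Deposited FPKM of the subunits of the MCM ring, GINS and the RFC2 to RFC5 clamp loader core in each library, with bars at the group means of 3 libraries. MCM6 and GINS2 lie apart from their own control values (44.5 to 19.4 and 47.5 to 9.58 FPKM), but the GINS2 values rest on gene lengths of 1180 and 2628 bases and were 2.27-fold apart in CPM, and the RFC5 values, which are higher in FPKM, rest on lengths of 4578 and 2071 bases.

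Of the factors that activate the helicase, 5 fell and 1 did not pass. GINS2, a subunit of the 4-part GINS complex that bridges CDC45 and the ring, had 53.8, 60.9 and 58.1 CPM in control and 26.1, 27.1 and 23.0 CPM in knockout libraries. Its log2 fold change was -1.18 ± 0.069 (adjusted p = 3.67e-17), and -2.39 with the length offset, as its length was 1180 bases in the control and 2628 bases in the knockout tables. Both values place GINS2 lowest among the factors of this step. CDC45 had 63.6, 74.1 and 66.2 CPM against 50.4, 53.5 and 47.2 CPM (log2 fold change -0.43 ± 0.063, adjusted p = 1.47e-07). MCM10, a fork protein needed to start the helicase, had 56.4, 56.3 and 55.3 CPM against 42.4, 39.9 and 42.3 CPM (log2 fold change -0.43 ± 0.059, adjusted p = 4.32e-08). GINS4 fell by 0.39 and GINS1 by 0.14 on the log2 scale, and the call of GINS1 was lost in 8 of 17 alternatives. GINS3 had 37.4, 36.6 and 32.8 CPM against 32.5, 33.3 and 34.2 CPM; the groups overlapped, and it did not pass (log2 fold change -0.09 ± 0.067, adjusted p = 0.197). In FPKM, GINS2 was the highest of the 4 GINS genes in the control libraries, with 52.0% ± 1.83 of their sum, and held 19.4% ± 1.33 in the knockout libraries, where GINS1 was highest. This change of rank rests on the GINS2 lengths: in counts GINS1 was above GINS2 in every library, with 0.893, 0.921 and 0.933 counts of GINS2 per count of GINS1 in control libraries against 0.457, 0.454 and 0.417.

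PCNA, the sliding clamp, was the most abundant of the 46 mRNAs per length in both groups (239.5 ± 12.5 and 268.0 ± 5.76 FPKM). In counts it had 343.9, 376.6 and 344.0 CPM in control and 388.4, 374.2 and 371.6 CPM in knockout libraries. Its groups overlapped, and its call as higher lay at the threshold (log2 fold change 0.09 ± 0.043, adjusted p = 0.04999); it was lost in 9 of 17 alternatives, in which the adjusted p reached 0.255, among them without control replicate 1 or 3 or any knockout replicate. All 7 clamp loader genes fell in counts, though RFC5 did so only without regard to length. The core subunits RFC2, RFC3, RFC4 and RFC5 had log2 fold changes of -0.57, -0.51, -0.51 and -0.37. RFC3, with lengths of 11251 and 11245 bases, and RFC2 kept their direction with the offset (-0.57 and -0.47). RFC5, with a control length of 4578 bases and a knockout length of 2071, turned to 0.72 (adjusted p = 4.09e-13), and to 0.79 on log2(FPKM + 0.1).

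The alternative clamp loader, which acts with cohesin on sister chromatids, is made of CHTF18, CHTF8 and DSCC1 on the RFC core, and all 3 fell. CHTF18 had 53.7, 59.2 and 58.3 CPM in control and 27.2, 23.2 and 29.1 CPM in knockout libraries (log2 fold change -1.11 ± 0.071, adjusted p = 7.78e-16). DSCC1 had 33.0, 38.4 and 33.1 CPM against 22.9, 18.2 and 18.5 CPM (log2 fold change -0.81 ± 0.084, adjusted p = 3.88e-10). CHTF8 stood apart from every other gene of the list, with 2591, 2750 and 2808 counts in the control libraries and 0 in each library labelled knockout. Set against a floor of 3 counts over the group, CHTF8 was at least 2470-fold lower. This gene (chromosome 16, 69118010 to 69132588) has the same start and end in RefSeq as DERPC, which was not analysed here; how reads of this shared locus were assigned is not given in the sources used here. It was the only gene of the 46 that shared both ends with another protein-coding gene, and 10 of the 46 overlapped at least 1. Without CHTF8, 35 genes fell and 6 rose, where 43.0% and 42.0% of all genes did so, and the median was -0.54.

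Among the 7 polymerase and primase genes of the list, the 4 of polymerases epsilon and delta fell, and of the 3 of polymerase alpha and primase 1 rose and 2 did not pass; subunits outside the list did not all follow this division. POLE2, the accessory subunit of the leading strand polymerase epsilon, had 24.1, 24.5 and 23.8 CPM in control and 8.17, 6.21 and 7.93 CPM in knockout libraries. It was 3.24-fold lower, with a log2 fold change of -1.69 ± 0.1 and an adjusted p of 5.23e-17. POLE, the catalytic subunit, had 198.2, 184.5 and 215.7 CPM against 121.3, 120.9 and 119.7 CPM (log2 fold change -0.73 ± 0.05, adjusted p = 5.58e-15). POLE2 thus went from 0.121 ± 0.0111 to 0.0617 ± 0.00895 counts per count of POLE. POLD1, the catalytic subunit of the lagging strand polymerase delta, had 101.1, 100.3 and 109.7 CPM against 63.4, 67.4 and 69.2 CPM (log2 fold change -0.64 ± 0.054, adjusted p = 7.44e-13), and its partner POLD3 fell by 0.42. In the priming complex, POLA2, the second subunit of polymerase alpha, was higher, at 70.9, 72.1 and 73.5 CPM in knockout against 56.6, 56.7 and 56.8 CPM in control libraries (log2 fold change 0.35 ± 0.054, adjusted p = 4.78e-07). POLA1, the catalytic subunit, had 47.6, 47.6 and 48.7 CPM against 51.2, 50.7 and 50.7 CPM in knockout libraries. It did not pass (log2 fold change 0.08 ± 0.058, adjusted p = 0.173), although its groups did not overlap. PRIM1, the catalytic primase subunit, had 40.5, 42.4 and 38.8 CPM against 39.4, 38.2 and 40.2 CPM, with overlapping groups (log2 fold change -0.05 ± 0.063, adjusted p = 0.486).

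The enzymes that finish the lagging strand went in opposite directions. FEN1, the flap endonuclease, had 139.4, 150.1 and 130.4 CPM in control and 165.8, 169.1 and 159.2 CPM in knockout libraries, and rose (log2 fold change 0.24 ± 0.049, adjusted p = 5.71e-05). LIG1, the ligase that seals the nicks FEN1 leaves, had 103.4, 109.2 and 107.8 CPM against 59.3, 58.3 and 59.7 CPM, and fell (log2 fold change -0.85 ± 0.052, adjusted p = 1.05e-16). The count of LIG1 per count of FEN1 was 0.765 ± 0.0537 and 0.359 ± 0.015 in the control and knockout libraries.

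Of the 4 genes for nucleotide supply, 3 fell and 1 rose. TYMS, which makes thymidylate, had 271.4, 282.9 and 272.3 CPM in control and 108.2, 110.9 and 105.2 CPM in knockout libraries (log2 fold change -1.35 ± 0.045, adjusted p = 4.69e-24). TK1, which salvages thymidine, had 175.1, 183.2 and 182.1 CPM against 136.6, 140.1 and 128.7 CPM (log2 fold change -0.41 ± 0.046, adjusted p = 6.00e-10). Both routes to thymidylate were thus represented by lower mRNA levels, that of TYMS by more. The subunits of ribonucleotide reductase, which makes deoxyribonucleotides, diverged. RRM2, the subunit made in S phase, had 308.2, 276.3 and 297.5 CPM against 191.2, 184.5 and 181.1 CPM (log2 fold change -0.66 ± 0.046, adjusted p = 3.21e-15). RRM1, the longer-lived large subunit, had 160.9, 161.7 and 164.1 CPM against 174.1, 180.2 and 182.7 CPM (log2 fold change 0.14 ± 0.044, adjusted p = 0.00383). There were 1.81 ± 0.103 counts of RRM2 per count of RRM1 in the control and 1.04 ± 0.0547 in the knockout libraries.

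Both E2F factors and both E-type cyclins of the list fell. CCNE2 had 35.9, 38.5 and 32.7 CPM in control and 7.64, 6.10 and 6.83 CPM in knockout libraries, the largest fall of the list after CHTF8. It was 5.21-fold lower (log2 fold change -2.38 ± 0.095, adjusted p = 9.61e-22), and -2.41 with the length offset. CCNE1 had 38.8, 44.1 and 39.3 CPM against 18.4, 16.5 and 17.4 CPM (log2 fold change -1.22 ± 0.075, adjusted p = 1.78e-16). The ratio of CCNE1 to CCNE2 counts, both partners of CDK2, was 1.14 ± 0.0618 in the control and 2.56 ± 0.145 in the knockout libraries, without overlap. E2F1 had 68.7, 75.6 and 65.8 CPM against 48.3, 48.1 and 47.8 CPM (log2 fold change -0.54 ± 0.059, adjusted p = 3.57e-10). E2F2 had 26.5, 27.0 and 27.9 CPM against 18.2, 17.1 and 17.8 CPM (log2 fold change -0.61 ± 0.077, adjusted p = 6.41e-09). The ratio of E2F1 to E2F2 overlapped between groups, at 2.58 ± 0.22 and 2.72 ± 0.0872.

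All 4 genes that act on chromatin and histone mRNA fell. UHRF1, which brings DNA methyltransferase to newly copied DNA, had 140.0, 127.3 and 150.6 CPM in control and 51.7, 49.9 and 45.2 CPM in knockout libraries (log2 fold change -1.51 ± 0.061, adjusted p = 4.80e-20). CHAF1A and CHAF1B, subunits of the CAF-1 histone chaperone, had log2 fold changes of -0.74 ± 0.054 and -0.81 ± 0.065, with adjusted p of 2.36e-14 and 1.88e-13. CHAF1A had 86.3, 89.9 and 88.8 CPM against 55.5, 51.6 and 51.9 CPM, and its length was 4323 bases in both groups. CHAF1B had 47.2, 51.1 and 50.1 CPM against 26.9, 28.4 and 29.5 CPM, and with lengths of 3911 and 6007 bases as an offset its log2 fold change was -1.49. SLBP, which binds the stem-loop of histone mRNAs, had 91.3, 93.9 and 84.0 CPM against 62.8, 60.9 and 59.6 CPM (log2 fold change -0.55 ± 0.055, adjusted p = 3.96e-11), and -0.31 with the offset of 2232 and 1810 bases.

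In all, 11 such ratios of counts between chosen partner genes were computed, and 9 did not overlap between the groups. Those not given above were MCM3 to MCM2 (1.53 ± 0.0342 in control and 0.690 ± 0.0127 in knockout libraries) and CHTF18 to PCNA (0.161 ± 0.00744 and 0.0701 ± 0.00817). Ratios of other gene pairs were not computed. The CPM of single genes stood apart for 85.6% of all tested genes, so such separation sets no pair apart. The exact two-sided permutation test gave p = 0.1 for each of the 9, the smallest that 3 against 3 libraries allow, or 0.122 after Benjamini-Hochberg adjustment, so 0 of the 11 could pass the threshold in this design.

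Levels across the list spanned a wide range per gene length. After PCNA, the highest in the control libraries were TYMS at 143.6 ± 3.19 FPKM and MCM7 at 105.3 ± 6.37 FPKM, and in the knockout libraries MCM7 at 119.0 ± 1.98 FPKM and TK1 at 86.9 ± 3.27 FPKM. TYMS had 62.3 ± 1.33 FPKM there, close to MCM4 at 60.9 ± 0.766 FPKM. The lowest in the control libraries were E2F2 at 4.43 ± 0.103 FPKM and POLA1 at 5.02 ± 0.0576 FPKM. In the knockout libraries CHTF8 was listed at 0 and CCNE2 came next, at 1.78 ± 0.201 FPKM.

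Other genes of the same pathways, from lists that exclude the 46, were mostly lower too, except in the list of nucleotide supply. Over all tested genes 43.0% were lower and 42.0% higher. Of 16 further genes of origin firing and fork protection, 12 fell, 2 rose and 2 did not pass (median -0.58). CLSPN, the claspin that links the fork to the checkpoint, fell from 117.9 ± 3.12 to 30.7 ± 1.38 CPM (n = 3 each). DONSON, which helps GINS reach the ring, had a log2 fold change of -1.76, WDHD1, which tethers polymerase alpha to the helicase, -1.13, and the helicase gene RECQL4 -0.89. ORC5 rose by 0.42 and TICRR by 0.18, and TICRR lost its call in 8 of the alternatives, among them the length offset and leaving out control replicate 2 or any knockout replicate. Of 16 further genes of polymerases and the fork, 11 fell, 2 rose and 3 did not pass (median -0.40). RPA1, the large subunit of the protein that coats single-stranded DNA, fell from 243.5 ± 6.40 to 136.3 ± 2.11 CPM (log2 fold change -0.84, or -0.33 with its lengths of 5049 and 3419 bases as an offset). PRIM2, the partner of PRIM1, fell by 1.07 and the nuclease-helicase gene DNA2 by 0.74, whereas POLD4, a small subunit of polymerase delta, rose by 0.61 and RNASEH2B by 0.42.

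The 11 further genes of nucleotide supply were divided, with 5 lower, 4 higher and 2 not called (median -0.09). These shares, 45.5% lower and 36.4% higher, were near the 43.0% and 42.0% of all tested genes. CTPS1, which makes CTP, fell from 228.9 ± 2.37 to 71.1 ± 4.99 CPM, and SAMHD1, which breaks deoxyribonucleotides down, from 100.3 ± 2.08 to 34.3 ± 0.559 CPM. DTYMK, which phosphorylates thymidylate, fell by 0.71, and DUT, which makes the dUMP that TYMS uses, by 0.68. The 4 that rose were CTPS2, SHMT1, RRM2B and TK2, by 0.86, 0.48, 0.45 and 0.45, named after their values were seen. Of 11 further genes of chromatin assembly and S phase mRNA, 8 fell and 3 rose (median -0.89). DNMT1, the methyltransferase that UHRF1 recruits, fell from 343.0 ± 19.7 to 159.2 ± 2.57 CPM. CDCA7 and HELLS, which act together in chromatin remodelling, fell by 1.90 and 1.25 (HELLS had -0.48 with its lengths of 13622 and 7684 bases as an offset), and ATAD2 by 0.95, while the histone chaperone genes RBBP7, ASF1B and ASF1A rose by 0.67, 0.57 and 0.55.

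Of 33 further genes of E2F, pocket protein and cyclin control, 21 fell, 11 rose and 1 did not pass (median -0.36). That is 63.6% lower and 33.3% higher, where 43.0% and 42.0% of all tested genes were. CDK2, the kinase partner of cyclin E, fell from 132.5 ± 4.47 to 41.9 ± 1.81 CPM. SKP2, which marks the inhibitor p27 for destruction, fell from 70.9 ± 3.21 to 19.0 ± 0.15 CPM. CDKN2A and CDKN2B, inhibitors that act upstream of the step, had at most 2 counts and 1 count in any library labelled knockout, against 50.96 ± 2.37 and 12.2 ± 0.506 CPM in the control libraries. The 11 that rose were named after their values were seen, and each is given with its log2 fold change. They were the transcription factor genes E2F5 (1.21), TFDP2 (0.89) and E2F6 (0.66), and CKS1B (0.45), CDK4 (0.36) and CCND3 (0.20). The others were the kinase inhibitor genes CDKN1C (2.03), CDKN2D (0.80), CDKN1B (0.45), CDKN1A (0.41) and CDKN2C (0.41). The value of CDKN1C rests on few reads, with 2, 5 and 4 counts in control and 19, 10 and 13 in knockout libraries. In a short list of 20 genes of G2/M and mitosis, 16 fell, 1 rose and 3 did not pass (median -0.47). The CPM of the groups did not overlap for 14 genes on the lower and 2 on the higher side. Of all tested genes, 43.2% and 42.4% stood apart in those directions. The calls of CCNB2, NEK2 and MKI67, with log2 fold changes of -0.12, -0.14 and -0.11, were lost in 12, 10 and 8 alternatives. BUB1 of the spindle checkpoint and CDC20, which it restrains, fell by 1.75 and 1.46. TPX2 and CCNB1, of the spindle and of mitotic entry, fell by 0.89 and 0.83, and FOXM1, a transcription factor of that phase, rose by 0.36.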

How the data were processed

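RNA-seq of total RNA was deposited for 6 libraries; per the labels' protocols, RNA was extracted with TRIzol and an mRNA library kit was used. Per the submitters' processing notes, HISAT2 2.2.1.0, Trimmomatic 0.36 and FastQC 0.11.5 were used, with the build GRCh38; how reads were counted, with which annotation and strand setting, is not given in the sources used here. The authors deposited whole-number counts per gene symbol, not normalized, and FPKM tables. Counts were compared with edgeR 4.0.16 in R 4.3.3 (filterByExpr, trimmed mean of M values, robust glmQLFit, glmQLFTest, two-sided, Benjamini-Hochberg over 12929 genes, threshold 0.05). The common coefficient of variation was 0.0443 (0.056 within control, 0.0246 within knockout). Replicates differed by more than sampling noise in every pair (1.73 to 8.04 for chi-square over its degrees of freedom). Total counts of 16018260 to 19357144 set the precision, and floors of 3 counts cover counting error only.

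Gene lengths were recovered as count over FPKM, scaled per library so that lengths came out whole within 0.02 bases. The 46 genes, role groups, lists and alternatives were chosen with earlier results of these data known. Genes given in full were the 3 with the largest change in each role group (all in groups of 4 or fewer), those called higher and those not called; of other lists, up to 4 by smallest p, and those against the list's direction where these were 3 or fewer. Gene coordinates and promoter windows are from RefSeq, GRCh38.p14. Alternatives were DESeq2 1.42.0, limma 3.58.1 (voom, and trend on log2(FPKM + 0.1) and log2(FPKM + 1)), other scalings and filters, the length offset, a replicate block, each library left out, a threshold of 0.01 and glmTreat at 1.5-fold; leaving out CHTF8 and setting it to its bound were added after the data were seen. The fit was tested on simulated counts in which few genes changed. In the data 85.0% of tested genes were called, so that test does not cover this setting. Python 3.11.15 made the summaries.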

Additional observations from a re-analysis of the deposited data

How the results depend on the processing

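Of the 46 genes, 37 kept their direction and their side of the threshold in each of the up to 17 refits tested against no change at 0.05, and 9 did not. The signs turned for RFC5 (log2 fold change 0.717 with the length offset, 0.794 on log2(FPKM + 0.1) and 0.754 on log2(FPKM + 1)), for MCM7 (0.092, 0.178 and 0.177 in the same order) and for PRIM1, which was not called in any of them (0.02 and 0.019 on the FPKM scales and 0.04 with upper quartile factors). The gene lengths enter the first 3 of these settings by construction; for upper quartile factors the cause was not tested. GINS1, PCNA and MCM4 lost their calls in 8, 9 and 3 of 17 alternatives. Against a 1.5-fold change (glmTreat), 18 genes were lower and 0 higher, where 21.7% and 24.4% of all genes were. Among the 16 genes with lengths within 1%, 15 were lower and 0 higher, with a median of -0.581. The median over all tested genes, -0.007 in the main fit, moved with the setting as well. It was 0.018 with library size only and 0.08 with upper quartile factors, where the median of the list was -0.52 and -0.458. With the length offset it was 0.0, where the list had -0.569. On the FPKM scales with 0.1 and 1 added it was 0.081 and 0.059, where the list had -0.49 and -0.433. With each library left out, the median of the list ran from -0.575 (without control replicate 3) to -0.525. The number higher ran from 4 to 6 and the number lower from 35 to 37, where 40.4% to 42.3% of all genes were higher and 41.5% to 42.8% lower. Without CHTF8 the median of the list was -0.542, and with CHTF8 at its bound -0.545. CHTF8 could not be fitted with the length offset.

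Same-numbered libraries did not pair: the correlations of their deviations from the group means were 0.018, -0.0248 and -0.00775. With a replicate block 36 genes were lower and 5 higher, with a median of -0.544; PCNA was no longer called.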
